A study of Mus musculus with 16 samples.

Results

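The orexin and melanin-concentrating hormone (MCH) systems were described from 5 genes, taken by symbol from the 55401 genes in the hypothalamus RNA-seq tables. They were Hcrt, the precursor of the orexins, with its receptors Hcrtr1 and Hcrtr2, and Pmch, the precursor of MCH, with its receptor Mchr1. All 5 were found, and all 5 were among the 15808 genes that passed the filter on low values (above 1 CPM, counts scaled to the library total, in 1 library or more). The data came from 16 hypothalami of male C57BL/6 mice aged 3 months, each sequenced as its own library, from 4 WT and 4 ASIC1a-/- mice 1 h after lights on (Zeitgeber time, ZT1) and from as many mice of both genotypes 1 h after lights off (ZT13). ASIC1a is a proton-gated cation channel of neurons. The deletion was global, so every tissue of the ASIC1a-/- mice lacked the channel. Both genotypes were bred from heterozygous mice. The mice studied were kept in a light-dark cycle with free access to food. Each mouse gave 1 time point, so a difference between ZT13 and ZT1 is a difference between animals.

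Orexin and MCH neurons are 2 separate neuron populations that lie intermingled in the lateral hypothalamus and project through most of the brain. Orexin neurons fire during wakefulness and stabilise it, and loss of the peptide or of Hcrtr2 causes narcolepsy in animals. MCH neurons are active during sleep, and MCH promotes feeding and weight gain. Each precursor is cut into several peptides, the orexins A and B from Hcrt, and MCH with neuropeptide EI from Pmch. The 3 receptors are G protein-coupled receptors. Hcrtr1 prefers orexin-A, Hcrtr2 binds both orexins and is the receptor of histamine neurons, and Mchr1 is the MCH receptor of rodents and is found on the primary cilium of neurons.

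Of the 5 genes, Mchr1 and Hcrtr2 were higher at ZT13 than at ZT1, by 1.16-fold and 1.14-fold averaged over genotypes. In that comparison, 26.4% of all tested genes passed the test, at an adjusted p under 0.05. The transcripts of both peptide precursors and of Hcrtr1 did not pass the test between times, and none of the 5 passed it between genotypes. Among all tested genes, 0.0127% passed it between genotypes at ZT1 and 0.101% at ZT13. The peptide transcripts were the most abundant of the 5 and varied most between mice of a group.

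The genes lie on 5 chromosomes in the mouse build GRCm38. Hcrt (ENSMUSG00000045471, chromosome 11, 100761069 to 100762931, minus strand) and Pmch (ENSMUSG00000035383, chromosome 10, 88091072 to 88092375, plus strand) are short, with 1 annotated transcript of 749 bp for Pmch and 2 for Hcrt, of 586 and 509 bp. Hcrtr1 (ENSMUSG00000028778, chromosome 4, 130130217 to 130139359, minus strand) has 4 annotated transcripts, and Hcrtr2 (ENSMUSG00000032360, chromosome 9, 76225880 to 76323856, minus strand) has 3. Mchr1 (ENSMUSG00000050164, chromosome 15, 81235499 to 81238964, plus strand) has 1 transcript of 2189 bp in 2 exons and lies 18.4 Mb from Asic1 on the same chromosome. The 3′ part of Pmch overlaps Parpbp, a gene of DNA repair on the opposite strand, over 944 bp (72.39% of the Pmch gene span). Parpbp had 26 to 62 counts per library and Pmch 26159 to 42623, and whether the counting used strand is not given in the sources used here.

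The 250 bases before the RefSeq start of 3 of the genes are given here, with their matches to short promoter motifs. Hcrt and Pmch are the abundant peptide precursors, and Mchr1 is the gene with the largest change between times. The build is GRCm38.p6, each sequence reads 5′ to 3′ towards the gene, and capitals mark a match to TATAAA in Hcrt and Pmch and to CACGTG in Mchr1.
Hcrt (chr11:100762932-100763181, minus strand): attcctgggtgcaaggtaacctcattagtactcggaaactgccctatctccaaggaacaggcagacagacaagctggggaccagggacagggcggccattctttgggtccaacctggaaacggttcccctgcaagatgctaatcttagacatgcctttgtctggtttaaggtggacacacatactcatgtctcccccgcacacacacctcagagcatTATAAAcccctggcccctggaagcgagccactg
Pmch (chr10:88090822-88091071, plus strand): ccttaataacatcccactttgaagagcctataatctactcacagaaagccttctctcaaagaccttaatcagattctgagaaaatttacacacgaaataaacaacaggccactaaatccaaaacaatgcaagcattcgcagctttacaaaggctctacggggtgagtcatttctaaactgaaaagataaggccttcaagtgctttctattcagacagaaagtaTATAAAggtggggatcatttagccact
Mchr1 (chr15:81235249-81235498, plus strand): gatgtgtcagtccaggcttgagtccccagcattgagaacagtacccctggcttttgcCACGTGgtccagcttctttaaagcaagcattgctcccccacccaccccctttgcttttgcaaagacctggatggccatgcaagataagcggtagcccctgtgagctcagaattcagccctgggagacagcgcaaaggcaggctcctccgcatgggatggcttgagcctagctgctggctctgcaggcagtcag

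TATAAA, the core of the TATA box, began 33 bases before the start of Hcrt and 27 bases before that of Pmch, and 12.4% of 32841 mouse windows of this length held it on either strand. CACGTG, the E-box bound by CLOCK and BMAL1, began 193 bases before the start of Mchr1 and was in 6.02% of the windows. The other motifs searched on both strands were TTATGNAA (the D-box, 3.07% of windows), AGGTCA (a site of nuclear receptors, 14% of windows) and TGACG (part of the CREB site, 17.8% of windows). Each of the 3 windows shown held a single match. The windows of Hcrtr1 and Hcrtr2 are not shown, since they lie partly or wholly inside the spans of annotated transcripts that start further upstream. AGGTCA was the motif found there, in 1 of the 3 windows of Hcrtr1 and in the window of Hcrtr2. A match is a run of letters and not a measured binding site, and the motifs were picked with the expression values known.

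Levels of different genes were compared in TPM, a transcript abundance scaled to the library total and corrected for transcript length. Pmch was the most abundant of the 5 in 16 of 16 libraries, at 2409 to 3755 TPM (median 3193), and Hcrt was next in all 16, at 368 to 704 TPM (median 565). Mchr1 followed in all 16, at 11.1 to 14.7 TPM (median 12.4). Hcrtr1 and Hcrtr2 came last at 6.39 to 9.22 TPM (median 7.98) and 5.69 to 8.03 TPM (median 7.16), and their order was not the same in every library. Hcrtr1 exceeded Hcrtr2 in 14 libraries, and both exceptions were WT ZT13 libraries. Pmch was 5.85 ± 0.929 times as high as Hcrt (SD over 16 libraries), and Mchr1 was 1.61 ± 0.218 times as high as Hcrtr1. Among all tested genes, the mean CPM of Pmch was at percentile 99.6 and that of Hcrt at 89.1, whereas Hcrtr1, Hcrtr2 and Mchr1 were at 30.0, 38.13 and 39.1. In whole tissue, fewer cells of a type and less RNA per cell cannot be told apart.

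The precursors varied far more between mice of a group than their receptors. The biological coefficient of variation fitted by edgeR was 16.1% for Hcrt and 11.02% for Pmch, at percentiles 90.9 and 79.8 of the tested genes, against a median of 4.93% over all genes. It was 6.89% for Hcrtr1, 5.08% for Hcrtr2 and 4.40% for Mchr1. Counting error alone, at the mean count of each gene, was 1.49% for Hcrt and 0.530% for Pmch, and it was 5.85% for Hcrtr1, 4.68% for Hcrtr2 and 4.56% for Mchr1, about the size of their variation between mice. Hcrt had 2953 to 5619 counts per library and the receptors 248 to 608, so the gene with more counts was also the one with the wider spread between mice. The estimated counts of all 5 genes had a posterior SD of 0 in every library, the value of a gene whose reads were not divided with another.

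Hcrt, in CPM, was 131, 147, 126 and 159.5 in WT at ZT1 and 135, 116, 112 and 85.5 in ASIC1a-/- at ZT1. At ZT13 it was 115, 159.7, 149.9 and 82.1 in WT and 145, 128, 116 and 105 in ASIC1a-/-. The 4 groups overlapped, and the lowest library was a WT mouse at ZT13, in the same group as the highest. Hcrt was 112 ± 20.5 CPM in ASIC1a-/- and 141 ± 15.2 in WT at ZT1 (SD, n = 4 each). This was a log2 fold change of -0.33 (SE 0.164, edgeR adjusted p = 0.718), with a 95% confidence interval from -0.67 to 0.01. It lay between -0.43 and -0.22 with single libraries left out, the latter without ASIC1a-/- ZT1 replicate 4, and it was -0.16 when the 3 libraries with most meningeal or thalamic RNA were left out. At ZT13 the genotype difference was -0.04 (95% interval -0.38 to 0.31), and the change from ZT1 to ZT13 averaged over genotypes was -0.01 (adjusted p = 0.976, 95% interval -0.25 to 0.24). The last interval holds fold changes of 0.841 to 1.18 between times, so a change of Hcrt within that range cannot be told from none. The interval is not the smallest change that would be called, which was not computed.

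Pmch, in CPM, was 1120.04, 1006, 863 and 1030.1 in WT at ZT1 and 1111, 931, 875 and 858 in ASIC1a-/- at ZT1. At ZT13 it was 989, 1115, 1009.5 and 727 in WT and 1083, 961, 951 and 1182 in ASIC1a-/-. The lowest value belonged to the same WT ZT13 mouse that was lowest in Hcrt, and the groups overlapped. The log2 fold change between times averaged over genotypes was 0.04 (SE 0.0786, adjusted p = 0.748, 95% interval -0.12 to 0.21). Between genotypes it was -0.09 at ZT1 (adjusted p = 0.889) and 0.12 at ZT13 (adjusted p = 0.9997). With single libraries left out these values ran from -0.18 to -0.03 and from 0.0094 (without WT ZT13 replicate 4) to 0.20, and none was called. Parpbp on the opposite strand had a log2 fold change of 0.07 between times (adjusted p = 0.78).

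**Figure D1:**
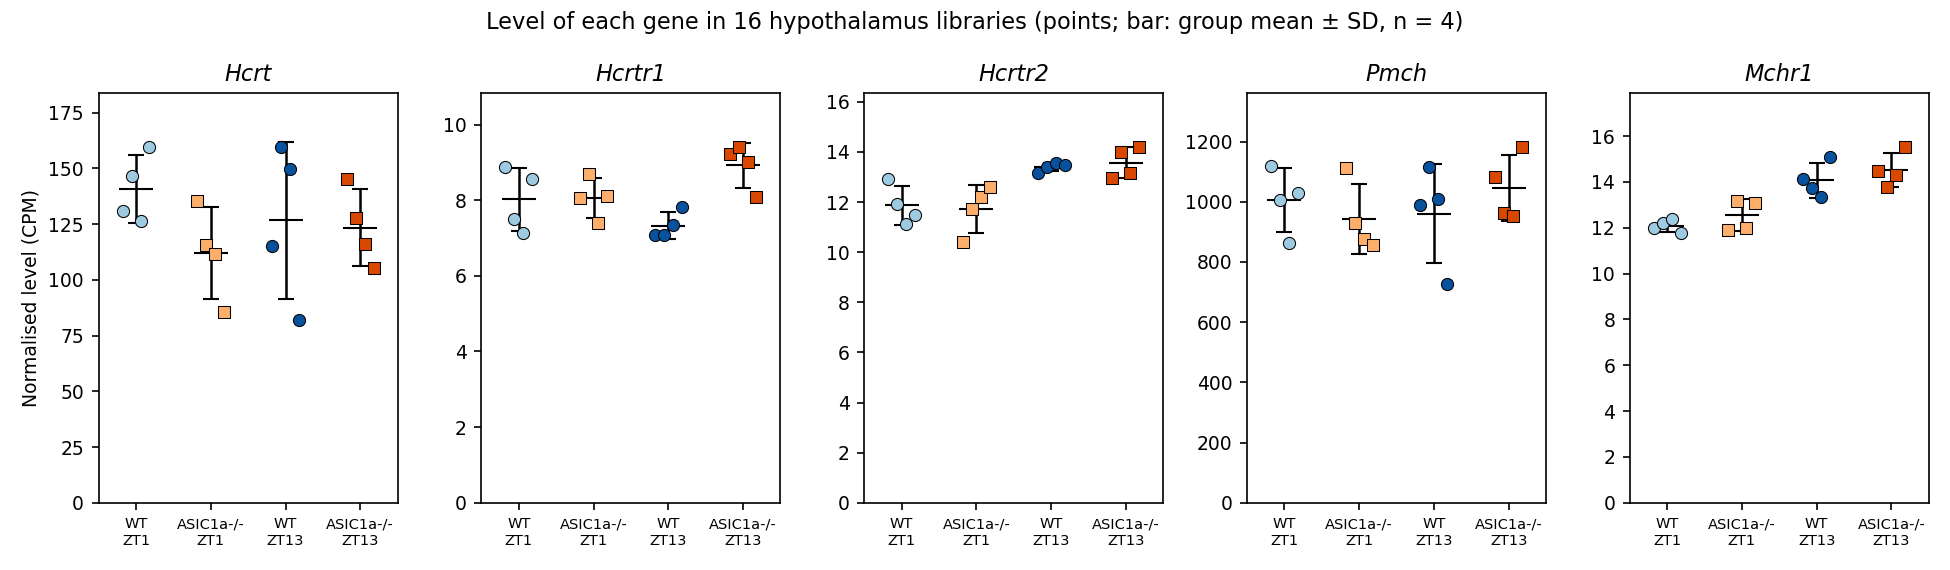
Level of the 5 genes in CPM (vertical axes, each from 0) in the 4 groups of 4 libraries. Points are libraries, and bars give the group mean ± SD. The libraries of Mchr1 and Hcrtr2 at ZT13 sit above those at ZT1, while the groups of Hcrt and Pmch overlap.

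Mchr1 was higher at ZT13 in each genotype. In CPM it was 12.01, 12.2, 12.4 and 11.8 in WT at ZT1 and 14.1, 13.7, 13.3 and 15.1 in WT at ZT13. In ASIC1a-/- it was 11.9, 13.2, 11.99 and 13.1 at ZT1 and 14.5, 13.8, 14.3 and 15.5 at ZT13. All 8 ZT13 libraries were above all 8 ZT1 libraries, a pattern found in 5.95% of the genes in either direction. The log2 fold change averaged over genotypes was 0.21 (SE 0.0382, 95% interval 0.13 to 0.30, edgeR adjusted p = 5.02e-04). Of all tested genes, 26.4% were called between times (14.3% higher and 12.1% lower at ZT13), and 2 of the 5 genes here were called, both higher. The adjusted p of Mchr1 stayed between 1.05e-04 and 0.00158 over all alternatives. The change was 0.22 in WT (adjusted p = 0.0128) and 0.21 in ASIC1a-/- (adjusted p = 0.0165), where 13.3% and 11.3% of genes were called. The test of the difference between the genotypes gave -0.01 (SE 0.0764, adjusted p = 0.9997, 95% interval -0.17 to 0.15). The calls within a genotype were near the threshold. The call in WT was lost without WT ZT13 replicate 4 (adjusted p = 0.0512, range over alternatives 0.0102 to 0.0512). The call in ASIC1a-/- was lost without ASIC1a-/- ZT1 replicate 1 (adjusted p = 0.0504), ASIC1a-/- ZT1 replicate 3 (0.0533) or ASIC1a-/- ZT13 replicate 4 (0.0511), in a range over alternatives of 0.00987 to 0.0565.

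Hcrtr2 was higher at ZT13 averaged over genotypes. In CPM it was 12.9, 11.9, 11.1 and 11.5 in WT at ZT1 and 13.2, 13.4, 13.6 and 13.5 in WT at ZT13. In ASIC1a-/- it was 10.4, 11.7, 12.2 and 12.6 at ZT1 and 12.9, 14.0, 13.2 and 14.2 at ZT13. The 8 ZT13 libraries were again above the 8 ZT1 libraries, but the lowest at ZT13 (12.94) was barely above the highest at ZT1 (12.93). The WT ZT13 libraries lay within a narrow range, with a SD of 0.164 CPM against 0.776 in WT at ZT1. That SD was 1.22% of the mean, under the counting error of 4.68% at the mean count of Hcrtr2. The narrow range is therefore not a measure of the spread between mice. The log2 fold change averaged over genotypes was 0.19 (SE 0.0430, 95% interval 0.10 to 0.28, adjusted p = 0.0030), and the adjusted p stayed between 0.00146 and 0.00948 over all alternatives. Within genotypes, the change was 0.17 in WT (adjusted p = 0.0665) and 0.21 in ASIC1a-/- (adjusted p = 0.0321), and the test of their difference gave 0.04 (SE 0.0861, adjusted p = 0.9997). A call in one genotype and not in the other is not a test of their difference. The call in ASIC1a-/- was lost without ASIC1a-/- ZT1 replicate 1 (adjusted p = 0.0934) or replicate 2 (0.0647), or without ASIC1a-/- ZT13 replicate 2 (0.0750), replicate 3 (0.0505) or replicate 4 (0.0763), in a range over alternatives of 0.0211 to 0.0934. WT passed without WT ZT1 replicate 1 (adjusted p = 0.0321) or ASIC1a-/- ZT1 replicate 1 (0.0393), in a range of 0.0321 to 0.169.

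Hcrtr1 did not pass the test between times when genotypes were averaged (log2 fold change 0.01, SE 0.0558, adjusted p = 0.927, 95% interval -0.11 to 0.13). In CPM it was 8.88, 7.51, 7.14 and 8.55 in WT at ZT1 and 8.06, 8.68, 7.40 and 8.10 in ASIC1a-/- at ZT1. At ZT13 it was 7.09, 7.08, 7.34 and 7.81 in WT and 9.21, 9.41, 9.02 and 8.07 in ASIC1a-/-. The genotypes overlapped at ZT1 and did not overlap at ZT13, as was the case for 2.58% of all genes at ZT13. The log2 fold change at ZT13 was 0.28 (SE 0.0788, 95% interval 0.12 to 0.45), or 1.22-fold, and ranked 50th of 15808 genes by p. It did not pass the correction (edgeR adjusted p = 0.649, unadjusted p = 0.0021), and 0.101% of genes did at ZT13. The genotype difference was 0.01 at ZT1 (adjusted p = 0.993) and 0.15 averaged over times (unadjusted p = 0.0179, adjusted p = 0.721). The test of the interaction gave 0.28 (SE 0.112, unadjusted p = 0.0232, adjusted p = 0.9997), where 0.0190% of genes were called. At ZT1 0.0127% of genes were called and 0.0633% averaged over times, and none of the 5 genes was among them.

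**Figure D2:**
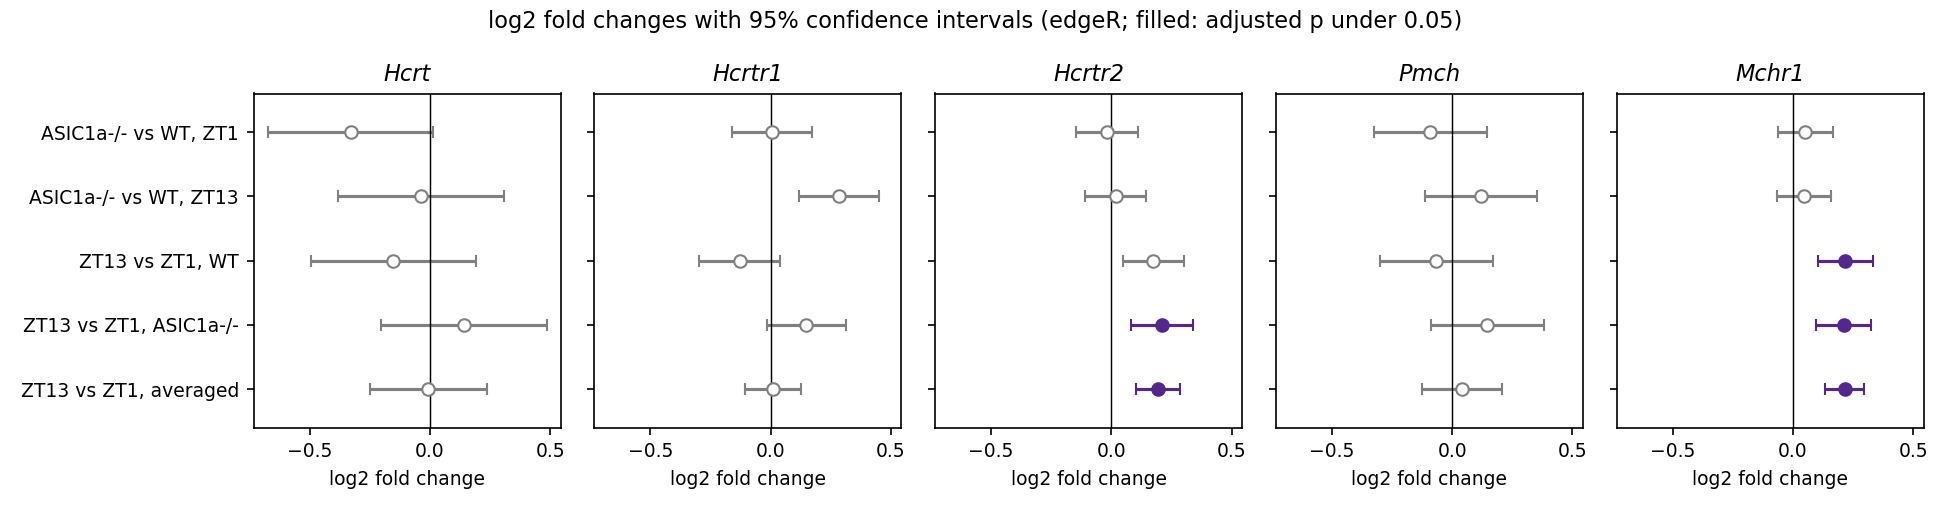
log2 fold changes (horizontal axes) of the 5 genes in 5 comparisons (rows), from edgeR. Points are estimates and bars their 95% confidence intervals, and filled points have an adjusted p under 0.05. Filled points are found in Mchr1 in all 3 comparisons of time and in Hcrtr2 in ASIC1a-/- mice and in the average.

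The balance of the 2 orexin receptors was compared as the TPM of Hcrtr1 over that of Hcrtr2 in each library. The ratio was 1.17 ± 0.0927 in WT at ZT1 and 0.968 ± 0.0750 in WT at ZT13 (SD, n = 4 each), and the groups did not overlap. It was 1.24 ± 0.223 in ASIC1a-/- at ZT1 and 1.14 ± 0.0852 in ASIC1a-/- at ZT13. The log2 ratio fell by 0.28 from ZT1 to ZT13 in WT, with an exact two-sided permutation p of 0.0286, the smallest that 4 against 4 libraries allow. After adjustment over 8 such tests it was 0.229, the value that a single test at the smallest p gets, so this test alone could not pass. With single libraries left out, the adjustment covered only the tests that use the group of the omitted library, and it gave 0.0571 to 0.229. Under the other alternatives the adjusted p was 0.229 to 0.5. The fall in ASIC1a-/- was 0.11 on the log2 scale (exact permutation p = 0.429, adjusted p = 0.686). The ratio of Hcrt to Pmch was lower in ASIC1a-/- than in WT at ZT1, with geometric means of 0.162 and 0.192, but the exact permutation p was 0.114 and the adjusted p 0.305. In the other 3 comparisons of that ratio the exact permutation p was 0.286 to 1.

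Within the groups, libraries with more Hcrt tended to have more Pmch and less Mchr1. After the group means were removed, Hcrt and Pmch correlated over 16 libraries with a Pearson r of 0.68 (permutation p = 0.0246) and a Spearman rho of 0.58 (permutation p = 0.0452). The adjusted values over the 10 pairs of genes were 0.123 and 0.226. When the 2 libraries with the most extreme Hcrt were left out, r was 0.42. Hcrt and Mchr1 had an r of -0.74 (permutation p = 0.00677, adjusted 0.0677), a rho of -0.66 (permutation p = 0.0217, adjusted 0.217) and an r of -0.59 without those 2 libraries. In log2 TPM this r was -0.87 (permutation p = 8.90e-04, adjusted p = 0.0089), so the pair passed the correction on that scale and not in CPM. Receptors and peptides come from the same libraries and dissections, so the points of a pair share a library and a dissection. In CPM the other 8 pairs had r from -0.42 to 0.25 and adjusted permutation p of 0.234 to 0.976. In log2 TPM, Pmch with Mchr1 had an r of -0.64 in place of -0.36 (permutation p = 0.0460, adjusted p = 0.115) and Hcrt with Hcrtr2 an r of -0.53 in place of -0.42 (permutation p = 0.0296, adjusted p = 0.0987), and neither passed the correction. Summed markers of 12 cell types and regions were correlated with the genes after removal of group means, given here without a test. For Pmch, r was 0.67 with neurons, -0.62 with striatum and cortex and -0.58 with endothelium. The r farthest from 0 was -0.43 with astrocytes for Hcrt, 0.25 with hypothalamus for Hcrtr1, 0.64 with microglia for Hcrtr2 and -0.52 with hypothalamus for Mchr1.

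**Figure D3:**
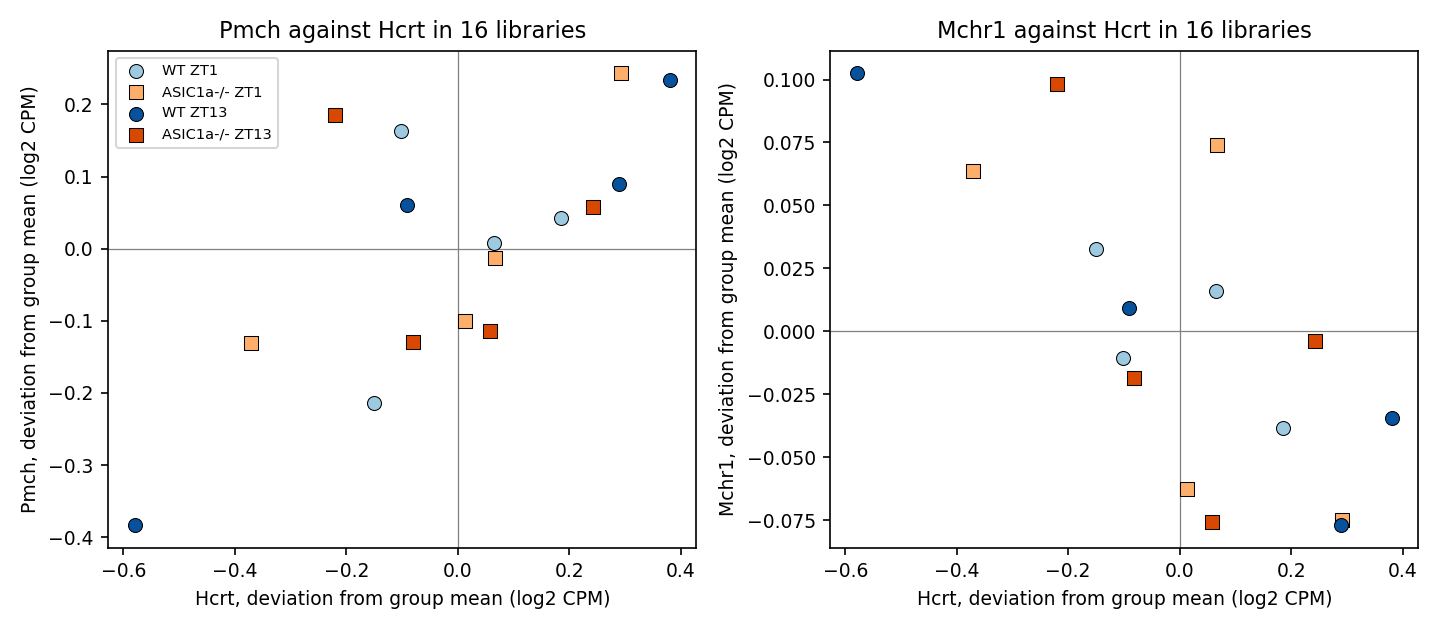
Deviation of Pmch (left) and Mchr1 (right) from the group mean against that of Hcrt, in log2 CPM, for 16 libraries. Colours and shapes give the 4 groups, and the WT ZT13 library at the far left is low in Hcrt and Pmch and high in Mchr1.

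The genes most similar to each member across the 16 libraries were sought among 14965 genes. The measure was the Pearson r of log2 CPM after the group means were removed. They were Hdhd3 (0.91), Mtx2 (0.90) and B4galt7 (0.88) for Hcrt, and Snu13 (0.91), Cnrip1 (0.89) and Sdhb (0.88) for Pmch. For the receptors they were Mapkap1 (0.85), Ttc12 (0.82) and Rps10 (0.82) for Hcrtr1, B230219D22Rik (0.94), Kcnk6 (0.89) and Lmo4 (0.88) for Hcrtr2, and Rims4 (0.87), Crnkl1 (0.86) and Capn11 (0.86) for Mchr1. No gene was nearest to 2 members. These are the highest of 14965 values each and describe these libraries.

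Genes around the 5 were read from lists. Of 13 genes of lateral hypothalamic neurons, none was called between times averaged over genotypes (median log2 fold change 0.02, all tested genes -0.005). Among them, Slc17a6, the vesicular glutamate transporter of both populations, had -0.05 (adjusted p = 0.0640), Nptx2 had 0.11 (0.0724) and the tachykinin receptor Tacr3 -0.12 (0.158). Of 13 genes that process and store neuropeptides, 2 rose and 1 fell (median -0.002), a share near the 26.4% called among all tested genes. Vgf, a granule protein of neuroendocrine cells, fell by 0.24 (adjusted p = 5.21e-05), and the amidating enzyme Pam rose by 0.07 (0.00998) and the granin Chga by 0.12 (0.0448). Pcsk1 and Pcsk2, the convertases that cut the precursors, had -0.05 and -0.002 and were not called.

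Of 17 genes of signalling below the receptors, 2 rose and 3 fell (median -0.02), again near the 26.4% of all genes. Plcb1, a phospholipase C driven by Gq, fell by 0.11 (adjusted p = 0.00822), Plcb4 fell by 0.06 (0.0441) and the protein kinase C gene Prkca fell by 0.08 (0.0491). Gna11, a Gq-class subunit, rose by 0.06 (0.0161) and the sodium-calcium exchanger Slc8a2 by 0.09 (0.0225). Of 13 genes of the primary cilium, where Mchr1 is found, Tulp3, which carries receptors into cilia, rose by 0.12 (0.0467) and the ciliary motor subunit Kif3a fell by 0.09 (7.13e-04), and Sstr3, another ciliary receptor, had 0.12 and missed the threshold (0.0670). These 2 were the cilium genes called, a share under the 26.4% of all genes, and the median was 0.03. The core clock marked the difference in time. Of its 12 genes, 9 rose and 1 fell (median 0.21), against 14.3% higher and 12.1% lower among all genes, with Per2 at 0.55 (5.84e-07), Dbp at 0.44 (1.80e-07) and Nr1d2 at 0.22 (1.45e-06). The log2 changes of Mchr1 and Hcrtr2 were close to that of Nr1d2 and under that of Per2. Between genotypes at ZT13, none of the 68 genes of these 5 lists was called, where 16 of all 15808 tested genes (0.101%) were. An unadjusted p under 0.05 was found for 591 of the 15808 genes (3.74%). The smallest p in each list belonged to Trh (-0.21), Vgf (0.11), Gnai3 (0.08), Ift88 (-0.11) and Dbp (-0.13), all with an adjusted p of 0.9997.

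**Figure D4:**
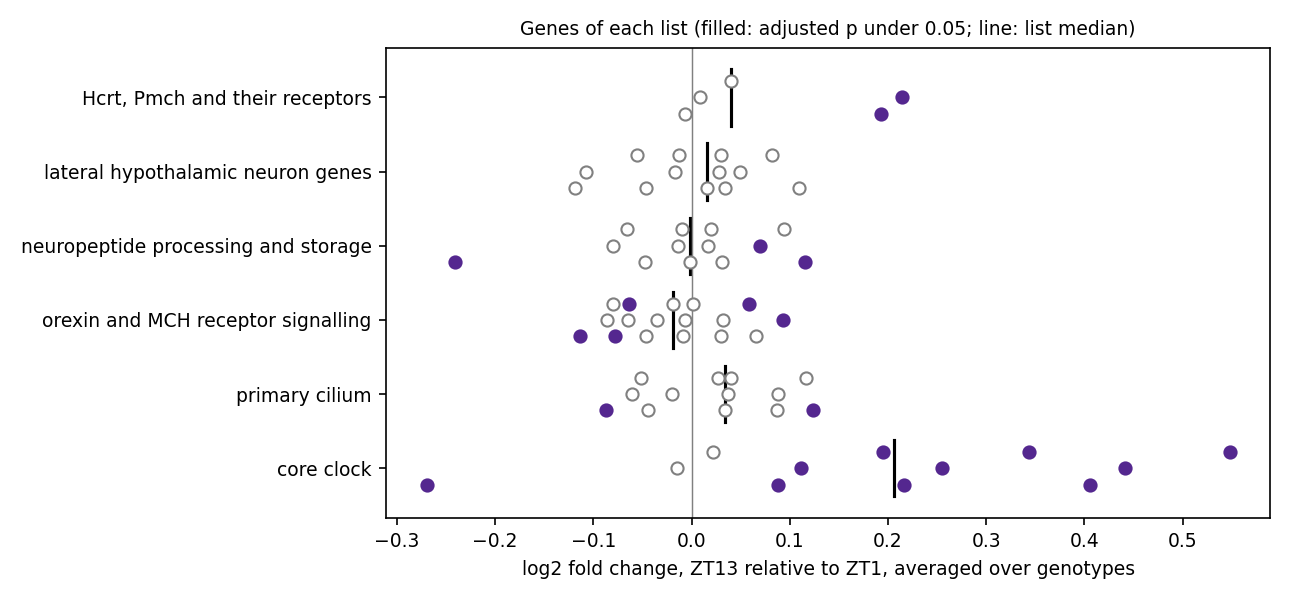
log2 fold change at ZT13 relative to ZT1, averaged over genotypes (horizontal axis), for the 5 genes and 5 gene lists (rows). Each point is a gene, filled where the adjusted p is under 0.05, and black lines are medians. Mchr1 and Hcrtr2 are the filled points of the top row, near the median of the core clock genes.

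Facts of the libraries bear on these values as follows. The total of expected counts was 34888522 to 42326259 per library. All 9 hypothalamic markers were detected in every library, from Sim1 at 5.77 TPM or more to Avp at 102.8 TPM or more. Asic1 was lower in ASIC1a-/- than in WT by 0.62 (ZT1) and 0.48 (ZT13) on the log2 scale (adjusted p = 3.49e-10 and 1.34e-08), with RNA of the gene still detected. Summed neuron markers were 1936 to 2055 TPM at ZT1 and 1925 to 2061 TPM at ZT13. Summed markers of meninges and choroid plexus were over 100 TPM in ASIC1a-/- ZT1 replicate 4 (255 TPM) and ASIC1a-/- ZT13 replicate 2 (151 TPM) and 45.8 to 84.2 TPM elsewhere. Without these 2 libraries the averaged change was 0.24 (adjusted p = 5.46e-04) for Mchr1 and 0.20 (adjusted p = 0.00405) for Hcrtr2, both called. Of 6 markers of the anterior pituitary, 2 were at 0 in every WT ZT1 library and none in every WT ZT13 library, and the sums were 1.43 to 9.54 TPM and 15.7 to 112 TPM. In ASIC1a-/- the sums were 13.2 to 36.5 TPM at ZT1 and 2.15 to 34.1 TPM at ZT13. Summed hypothalamic markers were 382 to 470 TPM at ZT1 and 478 to 531 TPM at ZT13 in WT, where the times did not overlap, and 425 to 558 TPM and 389 to 528 TPM in ASIC1a-/-, where they did. Summed microglial markers were 139.6 to 147 TPM at ZT1 and 134 to 137 TPM at ZT13 in WT, again without overlap. In ASIC1a-/- they were 144 to 159 TPM and 139 to 146 TPM. Averaged over genotypes, 2 of the 5 microglial genes were called lower at ZT13, against 12.1% of all tested genes. Summed endothelial markers in WT were 116 to 134 TPM at ZT1 and 127 to 138 TPM at ZT13. In ASIC1a-/- they were 115 to 129 TPM and 133 to 155 TPM, without overlap. Averaged over genotypes, 2 of the 5 endothelial genes were called higher and 1 lower, against 14.3% and 12.1% of all tested genes. Of 6 oligodendrocyte genes, 2 were called lower in the averaged time comparison, as was 1 of 5 astrocyte genes, and none higher. For the mammillary and subthalamic area, 1 of 6 was called higher and none lower. Summed thalamic markers were 92.5 TPM in WT ZT1 replicate 4 and 49.3 to 62.1 TPM elsewhere. The part of any of the 12 kinds of markers in the changes of Mchr1 and Hcrtr2 with time was not tested.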

How the data were processed

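Whole hypothalamus RNA of 16 mice was sequenced, 1 library per mouse, 4 in each of 4 groups, with groups taken from the sample titles. Per the submitters' processing notes, reads were trimmed and aligned with tools that include STAR 2.5.3a, cutadapt 1.8, HTSeq 0.9.1 and RSEM 1.2.31, and the builds listed are GRCm38 and mm9. The authors deposited RSEM expected counts, which were not normalized, and TPM, scaled by RSEM for effective length and library total. Labels and methods name different RNA and library kits. GENCODE release 21 gave symbols.

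Rounded expected counts of the 15808 genes over 1 CPM in any library entered the quasi-likelihood test of edgeR 4.0.16 (R 4.3.3), with TMM scaling and 1 mean for each group. Benjamini-Hochberg adjustment covered all tested genes in each of 7 comparisons, and a gene was called at an adjusted p under 0.05. Ratios were tested by exact permutation and relations by 100000 permutations within groups. Lists covered 5 pathways and 12 kinds of markers. Named were the 5 genes, Parpbp, the 3 genes most like each, and the 3 genes per list with the smallest p in the ZT13 genotype and the averaged time comparisons. Plcb4, Prkca, Pcsk1, Pcsk2 and the E-box and TATA motifs were chosen after their values were seen. The genes and lists were chosen with earlier results of these data known. Labels give separate mice. The alternatives were other filters, scalings, tools (DESeq2 1.42.0, limma 3.58.1), log2(TPM + 1) and log2(TPM + 0.1), only the groups compared, the replicate number as a block and the omission of each library, and, chosen after seeing the data, of the 2 or 3 libraries high in meningeal or thalamic markers. Libraries held 34888522 to 42326259 counts, at which counting error was small against the differences between mice for Hcrt and Pmch and of about their size for the receptors.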

Additional observations from a re-analysis of the deposited data

Results flagged for a closer look

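Over 28 sets of 4 values (the CPM of each of the 5 genes and the 2 log2 ratios, in each group), 1 held a library far from the others by Dixon's criterion, where chance alone gives about 1 in 20. It was the log2 TPM ratio of Hcrtr1 to Hcrtr2 in ASIC1a-/- mice at ZT13, where 1 library was at 0.0179 and the others at 0.22 to 0.26. That library was replicate 4, with the lowest Hcrtr1 (8.07 CPM) and the highest Hcrtr2 (14.2 CPM) of its group. Without it, the log2 ratio was higher in ASIC1a-/- than in WT at ZT13 by 0.29 (exact permutation p = 0.0286, the smallest that 3 against 4 libraries allow, adjusted p = 0.114). This adjustment covered only the 4 ratio tests that use this group, whereas that of the full set covered 8. The 2 adjusted values are therefore not on the same footing. With all 4 libraries it was 0.24 (exact permutation p = 0.0857, adjusted p = 0.305), and the library was left out for its distance from the others, so the smaller p is no added support.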

How the results depend on the processing

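The averaged changes of Mchr1 and Hcrtr2 with time were called under all 27 alternatives each, and no genotype difference of the 5 genes was called under any. Of 138 values of called results, 14 lost the call. The change of Hcrtr2 in ASIC1a-/- lost it without a low-count filter (0.21), with only the groups compared (0.21) and without the 2 libraries high in meningeal markers (0.23) or the 3 high in meningeal or thalamic markers (0.23), and that of Mchr1 in ASIC1a-/- with only the groups compared (0.21). Values near 0 changed sign, never called. With library size only, Hcrt was 0.0027 (time averaged) and the interaction of Mchr1 0.0020. In log2(TPM + 1) and log2(TPM + 0.1), that interaction was 0.028 and 0.030, Hcrt at ZT13 between genotypes 0.0097 and 0.0098, and Hcrtr2 between genotypes averaged -0.0095 and -0.011. The last was -0.0021 with limma-voom, -8.80e-04 with the replicate block, -0.025 without the 2 libraries and -0.033 without the 3. Without these, the interaction of Mchr1 was 0.038 and 0.051, and the change of Hcrtr1 with time -0.0026 without the 2. In log2 TPM, r was -0.87 for Hcrt with Mchr1 (now called), -0.013 for Hcrt with Hcrtr1 and 0.021 for Hcrtr1 with Pmch. The cause was not tested.

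With each library left out in turn, Hcrtr2 ranged from -0.054 to 0.035 (genotype at ZT1), -0.0043 to 0.042 (genotype at ZT13), -0.018 to 0.027 (genotype averaged), 0.15 to 0.22 (time in WT), 0.16 to 0.25 (time in ASIC1a-/-) and -0.017 to 0.072 (interaction). Hcrtr1 ranged from -0.045 to 0.060 (genotype at ZT1) and -0.017 to 0.035 (time averaged). Hcrt ranged from -0.20 to 0.094 (genotype at ZT13), -0.28 to 0.0081 (time in WT) and -0.072 to 0.075 (time averaged). Pmch ranged from -0.040 to 0.055 (genotype averaged) and -0.14 to 0.048 (time in WT). Mchr1 ranged from 0.18 to 0.24 in WT and 0.18 to 0.24 in ASIC1a-/- (time), and from -0.041 to 0.029 (interaction). The log2 ratio of Hcrtr1 to Hcrtr2 between genotypes at ZT1 ranged from -0.016 to 0.16, and that of Hcrt to Pmch from -0.20 to 0.0021 (genotype at ZT13) and -0.079 to 0.14 (time in ASIC1a-/-).

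The count of genes called moved by over 1.5 times under some settings. Between genotypes (2 at ZT1, 16 at ZT13, 10 averaged, 3 for the interaction) it was 15, 29, 20 and 17 with no filter, 7, 30, 23 and 13 with DESeq2, and 1 at ZT1 and 6 averaged in both TPM scales, with 9 at ZT13 in log2(TPM + 0.1). Between times (2099 in WT, 1792 in ASIC1a-/-, 4170 averaged) it was 863, 921 and 2581 in log2(TPM + 1) and 812, 927 and 2546 in log2(TPM + 0.1). It was 1074 in ASIC1a-/- without the 2 libraries, 985 in ASIC1a-/- and 1374 in WT without the 3, where the interaction had 6 and 5. With single libraries left out it was 1315 to 2191 in WT, 1154 to 1824 in ASIC1a-/-, 2 to 5 at ZT1 and 3 to 7 for the interaction.

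Replicate numbers were not used to pair the mice in the reported fit, since nothing in the labels gives a pairing. Deviations of libraries with the same number correlated at -0.32 to 0.22 (median 0.0087, against 0.017 for different numbers). Of 16 libraries, 5 correlated best with their own number. These values cannot show whether equal numbers mark a shared litter or day. With the replicate block, the interaction called 5 genes in place of 3, no call of the 5 genes changed, and the sign-flip test of the ratios could not go below 0.125. Depth limits the receptors most, at 248 to 608 counts per library.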
